A study of Mus musculus with 12 samples.

Results

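Expression of 10 transcription factor genes that set up and maintain astrocyte identity was examined in astrocytes isolated from the midbrain of Cd38+/+, Cd38+/- and Cd38-/- mice. The genes are Sox9, Sox2, Nfia, Nfib, Nfix, Hes1, Hes5, Id2, Id3 and Id4. They were taken by name from the 20614 genes of the expression table, and all 10 were found and passed the filter on low values. There were 3 Cd38+/+, 3 Cd38+/- and 6 Cd38-/- libraries, from male mice of 12 to 14 months bred from C57BL/6J; the labels do not tie libraries to single animals. The mutant animals carry the Cd38 tm1Lnd allele, a global disruption of exons 2 and 3, in 1 copy (Cd38+/-) or 2 copies (Cd38-/-), so that every cell type of the mouse is mutant and the loss is lifelong. Astrocytes were captured with beads against ACSA-2, a surface epitope carried by ATP1B2, from striatum, thalamus and substantia nigra dissected as midbrain, after removal of endothelial cells, myelin and microglia. Values are TPM, the share of a library's transcripts that a gene takes up, after scaling to transcript length. In such bulk samples fewer cells of a type and less RNA per cell cannot be told apart.

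SOX9 and SOX2 are HMG-box proteins. SOX9 switches neural stem cells toward glial fates and stays on in nearly all mature astrocytes of the adult brain, and SOX2 keeps neural progenitors undifferentiated and is retained in astrocytes. The nuclear factor I proteins NFIA, NFIB and NFIX bind DNA as dimers; NFIA is induced by SOX9 and together with it activates early astrocyte genes. HES1 and HES5 are basic helix-loop-helix repressors that are switched on by Notch signaling through RBPJ and hold proneural genes off. The ID proteins lack a basic domain, sequester E proteins such as TCF3, TCF4 and TCF12, and are classic targets of BMP signaling through SMADs.

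Cd38 itself followed the labels. It was 149, 120.0 and 105 TPM in the Cd38+/+ libraries, 90.8, 90.7 and 90.4 TPM in the Cd38+/- libraries, and 8.54 to 21.9 TPM in the Cd38-/- libraries, with a median of 15.7 TPM. The 3 genotypes did not overlap, and Cd38 fell by 2.96 on the log2 scale in Cd38-/- against Cd38+/+ libraries (q = 0.00116, limma). These values cover all exons of Cd38, those outside the disrupted part included. The astrocyte markers Slc1a3 and Gja1, a glutamate transporter and a gap junction protein, lay above at least 99.8% of genes by mean TPM in each genotype, Atp1b2 above at least 99.7% and the folate enzyme gene Aldh1l1 above at least 97.7%. The Cd38+/+ libraries stood apart from the rest. They had 13160 to 13516 genes above 0 TPM, against 16160 to 16327 in Cd38+/- and 15920 to 17906 in Cd38-/- libraries, and the median gene had an SD within genotype of 0.49 log2 units in Cd38+/+ against 0.20 and 0.23. GC-rich genes were also relatively higher in them: the 20% of expressed genes richest in GC exceeded the 20% poorest in GC by 0.26 to 0.42 log2 units in Cd38+/+, 0.13 to 0.22 in Cd38+/- and 0.04 to 0.27 in Cd38-/- libraries. The 20% of genes with the longest transcripts differed from the 20% with the shortest by -1.65 to -1.53 log2 units in Cd38+/+. That contrast was -1.39 to -1.06 in Cd38+/- and -1.59 to -1.12 in Cd38-/- libraries. Each comparison with Cd38+/+ rests on these same 3 libraries, and genotype and library quality cannot be told apart there.

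All 10 factors were abundant. By mean TPM they lay above 84.1% (Hes1 in Cd38-/-) to 99.5% (Id2 in Cd38+/-) of all genes, and summed to 3071 to 3727 TPM in Cd38+/+, 3232 to 3407 TPM in Cd38+/- and 2568 to 3135 TPM in Cd38-/- libraries. Over the 12 libraries the mean level was 839.6 TPM for Id2, 555 for Hes5, 506 for Id3, 322 for Sox9, 249 for Id4, 194 for Sox2, 183 for Nfix, 111 for Nfib, 105 for Nfia and 66.0 for Hes1. The order was firm at some steps and not at others. Id4 exceeded Sox2, and Nfix exceeded Nfib, in 12 of 12 libraries, whereas Nfib exceeded Nfia in 7, Hes5 exceeded Id3 in 9 and Sox2 exceeded Nfix in 9 of 12, so that these last 3 pairs of neighbours were not separated beyond their spread. The remaining steps held in 11 of 12 libraries.

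**Figure D1:**
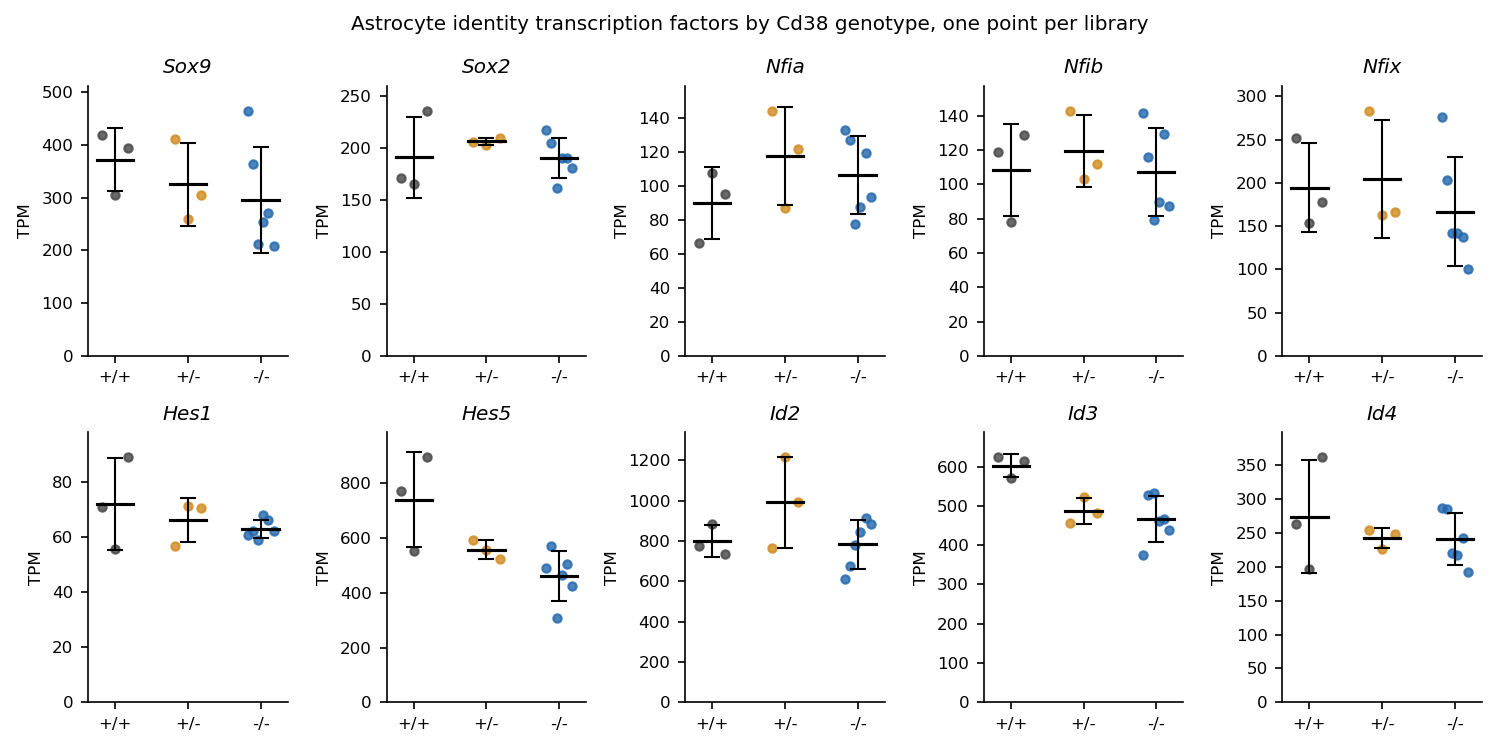
TPM of each of the 10 factors in each library, by Cd38 genotype (3 Cd38+/+, 3 Cd38+/- and 6 Cd38-/- libraries). Points are libraries, the horizontal line is the mean and the bars are 1 SD. Only for Id3 are the Cd38+/+ points clear of both other genotypes, at 569.8 to 624 TPM against 457 to 522 and 376 to 533 TPM, while 5 of 6 Cd38-/- points of Hes5 lie below all Cd38+/+ points.

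The first question was whether loss of Cd38 is accompanied by a change in the astrocyte identity program. In Cd38-/- against Cd38+/+ astrocytes, Hes5 was called lower, a call lost in 14 of 22 alternative fits, and the other 9 factors did not pass the test. Genes were called at a Storey q-value under 0.05 over all genes tested and a change of at least 1.2-fold, after a limma fit of log2(TPM + 1). By this rule 970 of 11722 genes (8.28%) were called, 752 higher (6.42%) and 218 lower (1.86%), beside 1 of the 10 factors, which was lower. Median-ratio scaling split the calls into 564 of 941 higher and quantile normalization into 563 of 1115, and these scalings moved the median gene from 0.15 to 0.04 and 0.01 on the log2 scale. The factors had a median difference of -0.16 against 0.15 over all genes tested, with 8 of 10 below 0 where 35.7% of all genes were below 0. This count and median rested on single Cd38+/+ libraries: without replicate 3, 5 of 10 were below 0 with a median of -0.05, and without replicate 2, 8 of 10 with a median of -0.35. Under median-ratio scaling 9 of 10 were below 0 (median -0.28), and with a replicate block 6 of 10 (median -0.09). An unadjusted p under 0.05 was reached by Hes5 and Id3, 2 of 10, against 23.6% of all genes, and the groups did not overlap for 1 of 10, Id3, against 11.8% of all genes.

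In Cd38+/- against Cd38+/+ astrocytes, none of the 10 factors was called by limma, as was the case for all 11763 genes tested (0%), with a smallest q of 0.158. The differences ran from -0.38 for Hes5 to 0.39 for Nfia with a median of -0.02, against 0.18 over all genes. Id3 alone had an unadjusted p under 0.05, against 13.5% of all genes, and Id3 alone was without overlap, against 22.5% of all genes. In Cd38-/- against Cd38+/- astrocytes, the comparison that leaves out the Cd38+/+ libraries, none of the 10 was called, against 4 of 11563 genes (0.0346%). Here all 10 differences were below 0, from -0.33 for Id2 to -0.03 for Id4, with a median of -0.16 against -0.02 over all genes, of which 54.6% were below 0. The astrocyte markers moved with them, with 14 of 15 below 0, a median of -0.31 and an unadjusted p under 0.05 in 8 of 15, none called by limma; Atp1b2 differed by -0.75, Fgfr3 by -0.45 and Gja1 by -0.31, and the part of this shift in the values of the factors was not tested. Without Cd38+/- replicate 1, 7 of 10 factors were below 0 with a median of -0.09, without Cd38-/- replicate 3 the median was also -0.09, and with length and GC trends removed 9 of 10 were below 0. None of the factors reached an unadjusted p under 0.05 (11.2% of all genes) and none was without overlap (5.73% of all genes). Against Cd38+/+ the astrocyte markers did not move with the factors. In Cd38-/- libraries 9 of 15 markers were above 0, with a median of 0.18 and Gfap called higher. In Cd38+/- libraries 14 of 15 markers were above 0, with a median of 0.32.

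**Figure D2:**
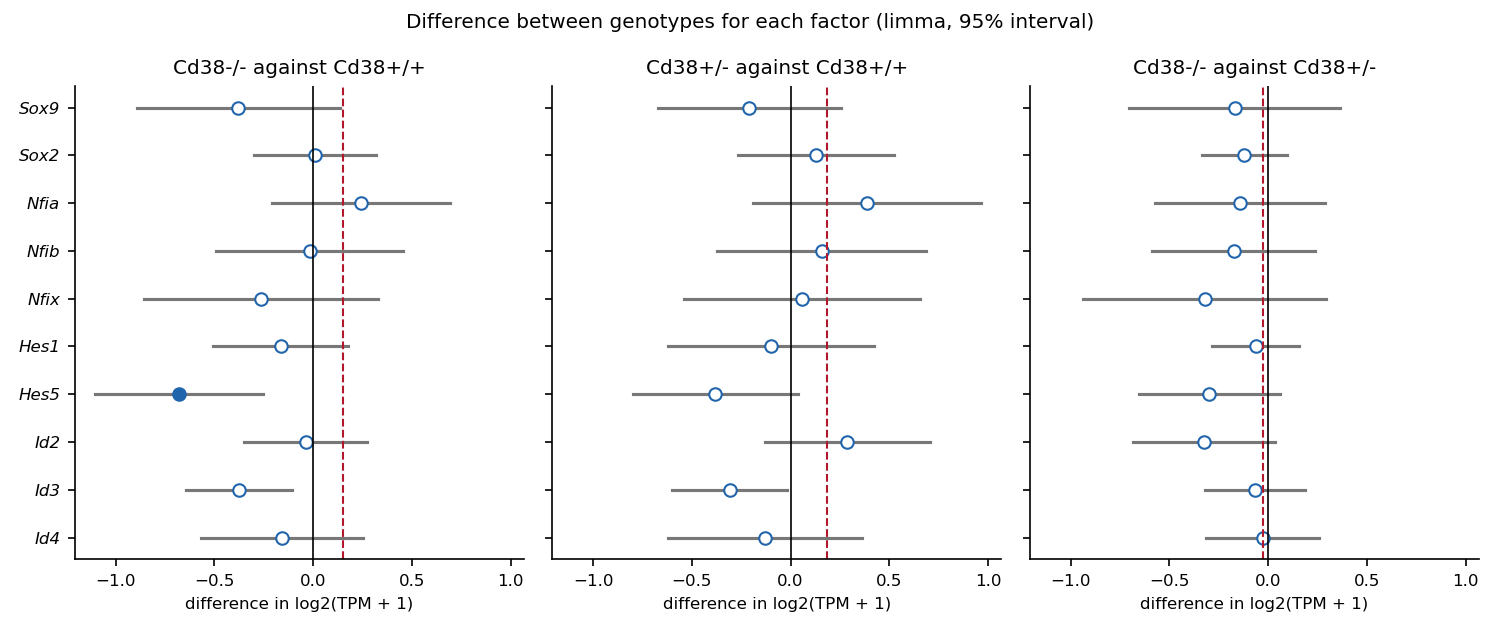
Difference between genotypes in mean log2(TPM + 1) for each factor, with 95% intervals from limma, in the 3 comparisons. A filled point passed the call rule and the dashed line is the median over all genes tested (0.15, 0.18 and -0.02). Hes5 in Cd38-/- against Cd38+/+ is the 1 filled point, at -0.68.

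Among the SOX factors, Sox9 (chromosome 11, 112782224 to 112787760, plus strand, GRCm38) was 418, 304 and 394 TPM in Cd38+/+ and 412, 259 and 304 TPM in Cd38+/- libraries, and ran from 209 through a median of 263 to 465 TPM in Cd38-/- libraries. The genotypes overlapped, although 4 of 6 Cd38-/- libraries lay below every Cd38+/+ library and 1, replicate 1, above every one. The means were 372 ± 59.8 (SD, n = 3), 325 ± 78.6 (SD, n = 3) and 296 ± 99.97 TPM (SD, n = 6). The difference of -0.38 (95% interval -0.89 to 0.13, q = 0.198, limma) between Cd38-/- and Cd38+/+ was smaller than the spread allows to be called, and its interval covers 0.539-fold to 1.098-fold. Sox2 (chromosome 3, 34650405 to 34652461, plus strand) was 171, 166 and 236 TPM in Cd38+/+, 206, 203 and 209.7 TPM in Cd38+/- and 161 to 217 TPM, median 190.3 TPM, in Cd38-/- libraries. Its 3 means of 190.7 ± 39.1, 206 ± 3.34 and 190.5 ± 19.3 TPM lay within the Cd38+/+ spread, and the interval for Cd38-/- against Cd38+/+ ran from 0.813-fold to 1.25-fold. Sox2 sits inside the non-coding gene Sox2ot on the same strand without shared exon bases. Sox9 made up 66.1 ± 4.37% of the summed Sox9 and Sox2 TPM in Cd38+/+, 60.6 ± 5.48% in Cd38+/- and 59.8 ± 5.33% in Cd38-/- libraries (exact permutation p = 0.107 for Cd38-/- against Cd38+/+).

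The 3 nuclear factor I genes showed no difference that passed the test, and wide spreads. Nfia (chromosome 4, 97772734 to 98118874, plus strand) was 66.2, 108 and 94.9 TPM in Cd38+/+, 144, 87.0 and 122 TPM in Cd38+/- and 77.6 to 133 TPM, median 106 TPM, in Cd38-/- libraries. The groups overlapped, with 3 of 6 Cd38-/- and 2 of 3 Cd38+/- libraries above all Cd38+/+ libraries. Against Cd38+/+ the difference was 0.39 (95% interval -0.19 to 0.96, q = 0.324, limma) in Cd38+/- and 0.24 (-0.21 to 0.69, q = 0.282) in Cd38-/-, and both comparisons use the same Cd38+/+ libraries. Nfib (chromosome 4, 82290173 to 82705750, minus strand) was 119, 77.9 and 129 TPM in Cd38+/+, 143, 103 and 112 TPM in Cd38+/- and 79.2 to 142 TPM, median 103 TPM, in Cd38-/- libraries, with means of 108 ± 27.0, 119 ± 20.9 and 107 ± 25.5 TPM. Nfix (chromosome 8, 84699876 to 84800344, minus strand) was 252, 153 and 177 TPM in Cd38+/+, 284, 163 and 167 TPM in Cd38+/- and 100.2 to 277 TPM, median 142 TPM, in Cd38-/- libraries. Its Cd38-/- values spanned the whole Cd38+/+ range, with 4 of 6 below it and 1 above it. The difference from Cd38+/+ was -0.26 (95% interval -0.86 to 0.33, q = 0.327, limma). Nfix shares 137 exon bases with G430095P16Rik on the opposite strand, and the labels do not state that reads were counted by strand, so reads of that stretch are uncertain. Within the family, Nfix made up 38.4 ± 7.003% of the summed TPM of Nfia, Nfib, Nfic and Nfix in Cd38+/+, 38.5 ± 3.14% in Cd38+/- and 36.1 ± 5.27% in Cd38-/- libraries. The paralog Nfic took 21.9 ± 2.21%, 16.1 ± 1.13% and 16.4 ± 1.18% in the same order. Its share did not overlap between Cd38-/- and Cd38+/+ libraries (exact permutation p = 0.0119, the smallest that 6 against 3 libraries allow), but with adjustment over the 30 share comparisons made the p was 0.357.

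The Notch effectors Hes1 and Hes5 differed in level by nearly an order of magnitude. Hes5 was the 1 factor called, in Cd38-/- against Cd38+/+ libraries, and its call was fragile, as given below. Hes5 (chromosome 4, 154960923 to 154962371, plus strand, GRCm38) was 769.8, 554 and 895 TPM in Cd38+/+ and 593, 556 and 524 TPM in Cd38+/- libraries, and ran from 307 through a median of 478 to 572 TPM in Cd38-/- libraries. Of the 6 Cd38-/- libraries, 5 lay below every Cd38+/+ library, and the groups overlapped only through Cd38-/- replicate 2 and Cd38+/+ replicate 2. The means were 739.8 ± 173 (SD, n = 3), 558 ± 34.1 (SD, n = 3) and 461 ± 90.1 TPM (SD, n = 6). Between Cd38-/- and Cd38+/+ the difference was -0.68 (SE 0.19, 95% interval -1.10 to -0.26, q = 0.0418, limma), or 0.624-fold, and the two-sided exact permutation p was 0.0238. Between Cd38+/- and Cd38+/+ it was -0.38 (95% interval -0.80 to 0.04, q = 0.250, limma), and between Cd38-/- and Cd38+/- -0.30 (-0.66 to 0.06, q = 0.376), neither of which passed the test. Hes1 (chromosome 16, 30064384 to 30067796, plus strand) was 71.1, 55.6 and 89.0 TPM in Cd38+/+, 56.8, 71.2 and 70.5 TPM in Cd38+/- and 59.1 to 67.8 TPM, median 62.1 TPM, in Cd38-/- libraries. All 6 Cd38-/- values of Hes1 fell inside the Cd38+/+ range, and the interval for the difference, -0.16 (95% interval -0.50 to 0.18, q = 0.312, limma), covers 0.705-fold to 1.13-fold. Hes5 made up 91.1 ± 0.368% of the TPM of the pair in Cd38+/+, 89.3 ± 1.67% in Cd38+/- and 87.7 ± 2.18% in Cd38-/- libraries (exact permutation p = 0.0357 for Cd38-/- against Cd38+/+, 0.402 with adjustment over the 30 comparisons).

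The promoter of Hes5 is shown because RBPJ, the DNA-binding partner of the Notch intracellular domain, acts on this gene. The window covers 250 bases before to 50 after the start in RefSeq (GRCm38.p6), chr4:154960673-154960972, plus strand, and capitals mark the letters GTGGGAA, searched on both strands as the RBPJ motif.
Hes5: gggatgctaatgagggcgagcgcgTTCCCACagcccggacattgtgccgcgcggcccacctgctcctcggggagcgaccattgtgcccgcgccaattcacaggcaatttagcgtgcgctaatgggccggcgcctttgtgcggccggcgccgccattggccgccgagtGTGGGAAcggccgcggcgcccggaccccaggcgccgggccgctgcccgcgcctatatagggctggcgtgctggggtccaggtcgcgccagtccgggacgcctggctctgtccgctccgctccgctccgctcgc
The window held 2 matches, 226 bases (opposite strand) and 83 bases (given strand) before the start. Of 32851 promoter windows of this length, 6.38% held at least 1 match and 0.256% at least 2. RefSeq windows were found for 7 of the 10 factors, and none of the windows of Sox2, Nfia, Nfix, Id2, Id3 and Id4 held these letters. A match is a stretch of letters and not evidence of binding.

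Hes5 is among the most GC-rich of the genes tested, with a median transcript GC content of 63.9%, above 99.4% of them. Its transcripts are also short, with a median length above that of 26.1% of the genes tested. The parts of GC content and of transcript length in the difference of Hes5 were not tested. Within genotypes the libraries are too few to settle how Hes5 follows the excess of GC-rich genes. In Cd38+/+ the replicates had the same order by both, 3 over 1 over 2. In Cd38+/- replicate 1 had the highest Hes5 (593 TPM) and the lowest excess (0.13 log2 units), and in Cd38-/- the lowest excess (0.04) came with the second highest Hes5 (506 TPM, replicate 5) and the highest (0.27) with 465 TPM (replicate 4). With the trends by transcript length and GC content removed, the difference between Cd38-/- and Cd38+/+ was -0.28 (q = 0.209, limma) in place of -0.68, and that between Cd38+/- and Cd38+/+ -0.01 in place of -0.38. The call was also sensitive to single libraries. It was lost on leaving out Cd38+/+ replicate 1 (q = 0.0587, limma) or 3 (q = 0.0521), and on leaving out any 1 of the 6 Cd38-/- libraries (q from 0.0505 to 0.0815), while without Cd38+/+ replicate 2 it was -0.87 with q = 0.0163. With Benjamini-Hochberg adjustment, which is stricter than the Storey q-value, the adjusted p was 0.0738. Cd38-/- replicate 3, the library with the lowest Hes5, also had the lowest Hes1, Sox2, Nfia and Nfib of its genotype and the highest summed oligodendrocyte markers of all libraries, 17814 TPM against 1300 to 11030 TPM in the rest; the part of oligodendrocyte RNA in the low Hes5 was not tested. Without it, the difference in Hes5 was -0.57 (q = 0.0505, limma). Gm20421, on the opposite strand, shares 433 exon bases with Hes5 and has no row in the table.

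**Figure D3:**
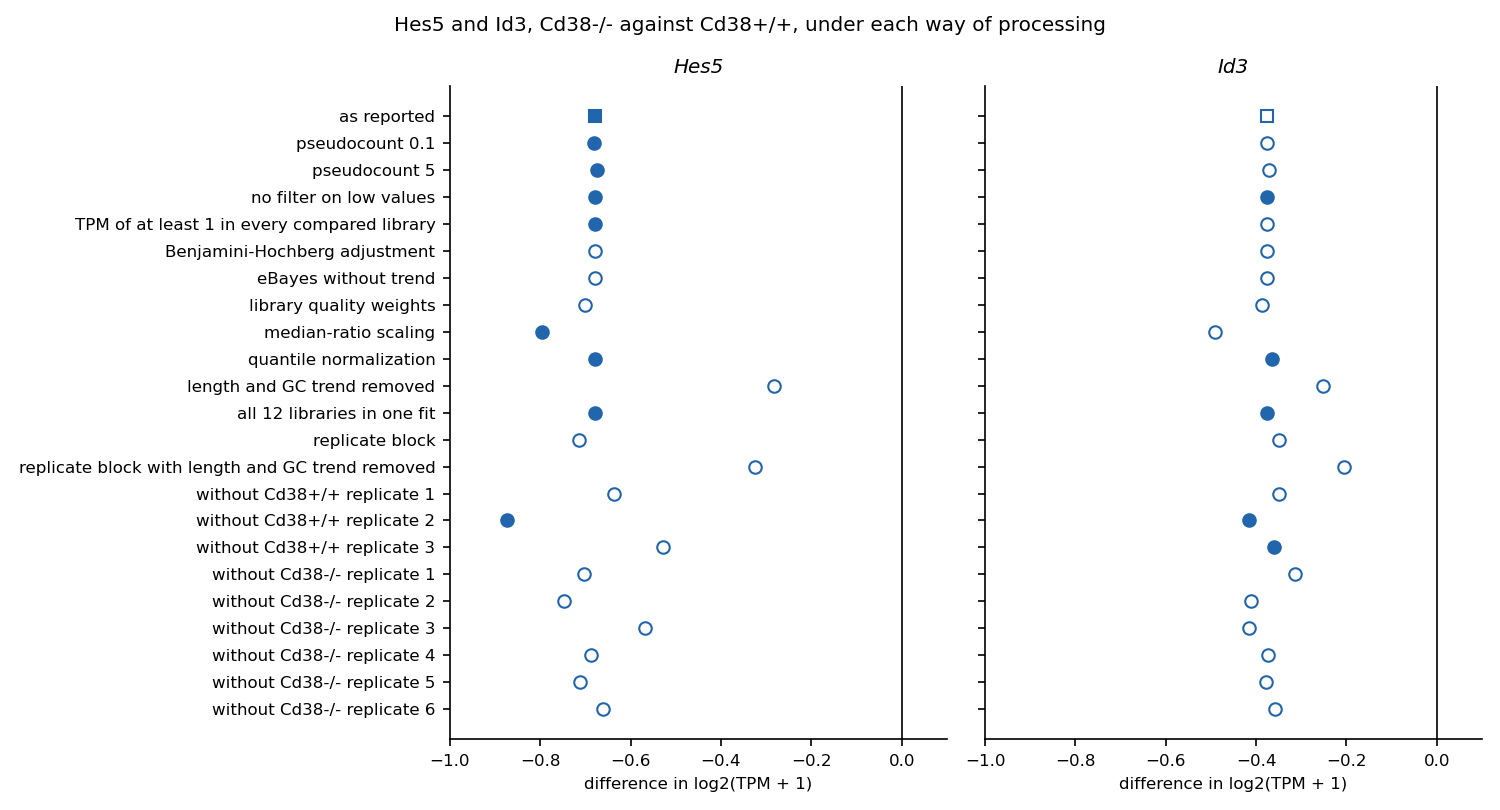
Difference in log2(TPM + 1) between Cd38-/- and Cd38+/+ for Hes5 (left) and Id3 (right) under each way of processing, with the reported value as a square. Filled symbols passed the call rule. Every value lies below 0, those of Hes5 from -0.87 to -0.28 and those of Id3 from -0.49 to -0.21, and the smallest differences come with the length and GC trends removed.

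Among the ID genes, Id3 had the clearest separation and Id2 the highest level. Id3 (chromosome 4, 136143497 to 136145755, plus strand) was 624, 569.8 and 614 TPM in Cd38+/+, 457, 522 and 482 TPM in Cd38+/- and 376 to 533 TPM, median 464 TPM, in Cd38-/- libraries. Every Cd38+/- and every Cd38-/- library lay below the lowest Cd38+/+ library. The means were 603 ± 28.9 (SD, n = 3), 487 ± 32.9 (SD, n = 3) and 467 ± 58.3 TPM (SD, n = 6). The difference from Cd38+/+ was -0.38 (SE 0.12, 95% interval -0.64 to -0.11) in Cd38-/-, with q = 0.0582 in limma and an exact permutation p of 0.0238, so that it missed the threshold over all genes. In Cd38+/- it was -0.31 (95% interval -0.60 to -0.02, q = 0.226, limma), with an exact permutation p of 0.1, the smallest that 3 against 3 libraries allow. The call for Cd38-/- was gained with no filter on low values (q = 0.0453, limma), with quantile normalization (q = 0.0452), with all 12 libraries in 1 fit (q = 0.0308) and without Cd38+/+ replicate 2 (q = 0.0491) or 3 (q = 0.0478). Over the remaining 17 alternatives q ran from 0.0513 to 0.596. The median transcript GC content of Id3, 55.6%, lay above that of 76.9% of the genes tested, and its median transcript length above that of 18.5%. The parts of GC content and of transcript length in the difference of Id3 were not tested.

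The promoter window of Id3 in RefSeq (GRCm38.p6), chr4:136143572-136143871, plus strand, begins its count at a RefSeq start inside the GENCODE gene, and is shown as that of the factor with the clearest separation, with capitals marking TTGGC, searched on both strands as a half-site of nuclear factor I proteins.
Id3: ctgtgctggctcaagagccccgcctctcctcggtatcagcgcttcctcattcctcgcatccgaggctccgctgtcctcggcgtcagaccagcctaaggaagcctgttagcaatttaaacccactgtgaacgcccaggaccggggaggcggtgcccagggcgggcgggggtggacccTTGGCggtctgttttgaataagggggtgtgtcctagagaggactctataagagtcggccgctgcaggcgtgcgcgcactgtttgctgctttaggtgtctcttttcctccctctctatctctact
It held 1 match, 74 bases before the start, and these letters occur at least once in 46.7% of the 32851 windows. The letters ACAAAG, searched as a SOX motif, occur in 18.7% of windows and were absent from the window of Id3.

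Id2 (chromosome 12, 25093799 to 25097140, minus strand) was 776, 886 and 736 TPM in Cd38+/+, 763, 1216 and 993 TPM in Cd38+/- and 609 to 913 TPM, median 812 TPM, in Cd38-/- libraries. The Cd38-/- values covered the Cd38+/+ range on both sides, and 2 of 3 Cd38+/- libraries lay above it. The difference was -0.04 (95% interval -0.35 to 0.27) for Cd38-/- and 0.29 (-0.13 to 0.70) for Cd38+/- against Cd38+/+, and -0.33 (-0.69 to 0.04, q = 0.353, limma) for Cd38-/- against Cd38+/-. Id4 (chromosome 13, 48261228 to 48266026, plus strand) was 263, 197 and 362 TPM in Cd38+/+, 254, 226 and 248 TPM in Cd38+/- and 192 to 287 TPM, median 231 TPM, in Cd38-/- libraries. The Cd38+/+ libraries of Id4 covered all values of the other genotypes except 1 of Cd38-/-, and the interval for Cd38-/- against Cd38+/+ ran from 0.675-fold to 1.19-fold. Id4 shares 82 and 171 exon bases with 2 non-coding genes on the opposite strand. The paralog Id1 was 366, 171 and 137 TPM in Cd38+/+, 151, 107 and 106 TPM in Cd38+/- and 125 to 188 TPM in Cd38-/- libraries, highest in Cd38+/+ replicate 1. With Id1 included, Id3 made up 31.7 ± 1.29% of the ID family in Cd38+/+, 26.6 ± 1.47% in Cd38+/- and 28.5 ± 2.64% in Cd38-/- libraries, and Id2 42.2 ± 5.57%, 53.3 ± 5.94% and 47.8 ± 4.99%. None of these shares passed the exact test with adjustment, where the lowest value over the 30 comparisons was 0.357.

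ID genes are also expressed by vascular cells, and the summed TPM of 6 endothelial markers ran from 376 to 1781 in Cd38+/+, 309 to 577 in Cd38+/- and 316 to 1107 in Cd38-/- libraries. The tight junction gene Cldn5, one of these markers, was 488 TPM in Cd38+/+ replicate 1, where Id1 was also highest. The endothelial list had a median below 0 in both comparisons with Cd38+/+, as Id3 did, without a call by limma. The list median was -0.34 in Cd38-/- against Cd38+/+ libraries, with 4 of 6 below 0. Cldn5 was at -0.83 (q = 0.108, limma), while Pecam1 was at 0.80 and Flt1 at 0.01. In Cd38+/- against Cd38+/+ the list median was -0.46, with 5 of 6 below 0 and Cldn5 at -1.28 (q = 0.181, limma). In Cd38+/+ replicates 1, 2 and 3 the endothelial sum was 1781, 956 and 376 TPM, and Id3 was 624, 569.8 and 614 TPM. The part of endothelial RNA in the difference of Id3 was not tested.

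The factors did not vary together as 1 group across libraries. Sox9, Nfix, Nfia and Nfib were all above their own means in Cd38+/- replicate 1 and Cd38-/- replicates 1 and 2, and below them in Cd38-/- replicates 3, 4 and 6. Id2 was below its own mean in Cd38+/- replicate 1 and Cd38-/- replicates 1, 2 and 3, at 609 and 674 TPM in Cd38-/- replicates 1 and 2, and was highest in Cd38+/- replicate 2 at 1216 TPM. Within genotypes the spread was widest for Nfix and Sox9, with pooled SDs of 0.47 and 0.39 log2 units, and narrowest for Id3, Sox2 and Hes1, with 0.15, 0.17 and 0.19. Among genes within 0.5 log2 units of the same mean level, 97.0% of 943 genes varied less than Nfix and 96.6% of 436 less than Sox9, against 22.4% of 228 for Id3 and 21.1% of 2065 for Hes1. The SD of Hes1 was 0.33 log2 units in Cd38+/+, 0.18 in Cd38+/- and 0.07 in Cd38-/- libraries.

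**Figure D4:**
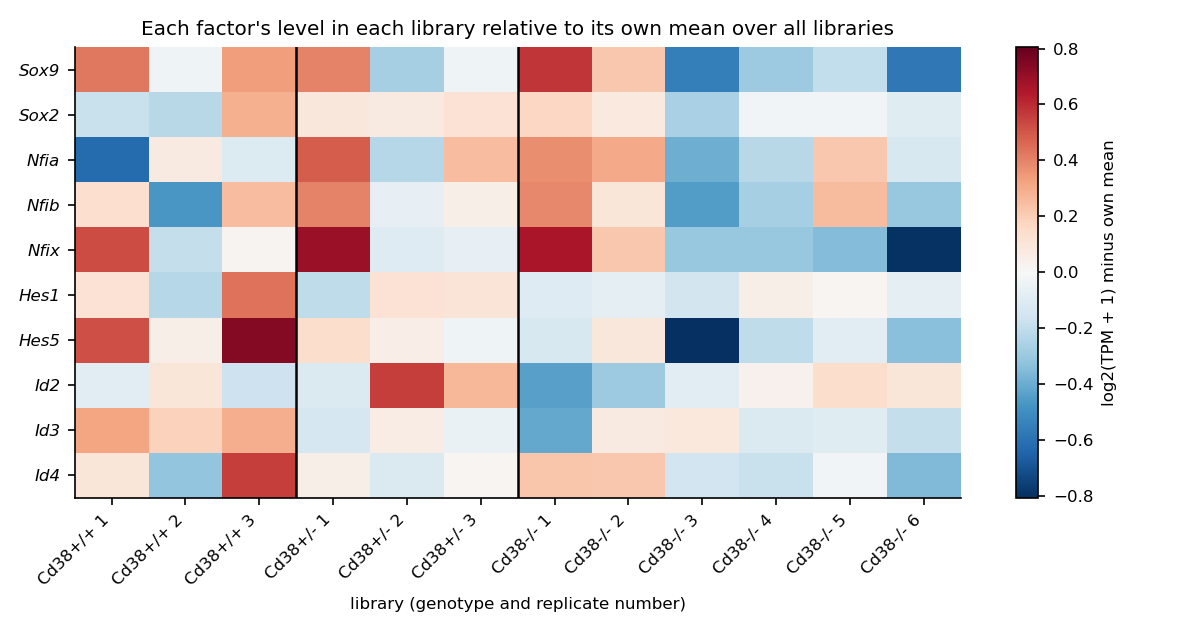
Level of each factor in each of the 12 libraries relative to its own mean over all 12, in log2(TPM + 1), with red above and blue below the mean and black lines between genotypes. Sox9, Nfia, Nfib and Nfix are red together in Cd38+/- 1 and Cd38-/- 1, Hes5 and Id3 are red in the 3 Cd38+/+ libraries, and Hes5 is lowest in Cd38-/- 3.

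By root mean square difference of these profiles over the 12 libraries, among 11845 expressed genes, the gene most like Nfix was Sox9 (0.18 log2 units), followed by Dock6 and Ripor1. The genes most like Sox9 were Pard3b (0.13), Nfic (0.15) and Akap9 (0.16), with Nfix the nearest of the 10 factors. Sox2 was most like Acsf3, Derl1 and Tmem109 (0.07 to 0.09), Nfia like Ankfy1, Kdm5b and Csnk1d (0.09 to 0.10), and Nfib like Itsn1, Nktr and Crtc3 (0.08 to 0.12). Hes1 was most like Psmd6, Pyurf and Npdc1 (0.05 to 0.07), and Hes5 like Mark4, Hmg20b and Zbed3 (0.11 to 0.14). Id2 was most like Tagln3, Tmem176a and Asah1 (0.09 to 0.13), Id3 like Lysmd2, Eif4a1 and Vps29 (0.10 each), and Id4 like Lss, Nipa2 and Med25 (0.11 to 0.12). Apart from the pair of Nfix and Sox9, no factor was among the 3 nearest genes of another.

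The pathways upstream of the factors were read in Cd38-/- against Cd38+/+ libraries. Of 24 tested Notch pathway genes (of 27 listed), 1 was called, against 8.28% of all genes: Psenen, a subunit of the gamma-secretase that releases the Notch intracellular domain. It was 305, 412 and 326 TPM in Cd38+/+ against 206 to 278 TPM in Cd38-/- libraries, without overlap, and fell by 0.47 (q = 0.0429, limma). The median of the list was 0.21 against 0.15 over all genes. Of 16 tested BMP pathway genes (of 22), again 1 was called, the type II receptor gene Acvr2b, which fell by 1.04 (q = 0.0455, limma). It was 23.7, 39.4 and 54.5 TPM in Cd38+/+ against 11.0 to 25.2 TPM in Cd38-/- libraries, and overlapped through Cd38+/+ replicate 1. Without Cd38+/+ replicate 3 its difference was -0.77 (q = 0.0560, limma). The BMP list had a median of 0.26. Both lists mix activating genes with inhibitors, such as Numb for Notch and Nog and Chrd for BMP. Their medians therefore give no direction of signaling. Of the 17 family paralogs, 14 were tested and none was called by limma, with a median of -0.36 and an unadjusted p under 0.05 in 2, Nfic (-0.59) and Hes6 (-0.44), named here after their values were seen. The 2 most abundant paralogs, Id1 and Hey1, differed by -0.52 (95% interval -1.07 to 0.03) and 0.24 (-0.13 to 0.62).

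Of the 10 listed genes of gliogenic JAK-STAT signaling, 2 were called, both higher, against 6.42% of all genes called higher. Of these 2, Lif passed the filter on low values only through Cd38-/- libraries (mean 5.47 TPM, against 0.457 TPM in Cd38+/+). The filter thus favoured a higher call for Lif, which was tested in 20 of the 22 alternatives. Il6st, the signal-transducing gp130 receptor, was 65.9, 51.9 and 58.8 TPM in Cd38+/+ against 84.8 to 144 TPM in Cd38-/- libraries and rose by 0.87 (q = 0.0171, limma). The groups did not overlap. Lif, a cytokine that signals through gp130, had 0, 0 and 1.4 TPM in the Cd38+/+ and between 2.8 and 8.1 TPM in the Cd38-/- libraries (q = 0.0207, limma), and under quantile normalization its difference was 0.78 rather than 2.22 and was not called (q = 0.170). Among 14 further astrocyte transcription factors, 2 were called higher and 2 lower, against 6.42% and 1.86% of all genes, with a median of 0.05. Gli3, a Hedgehog effector, and the zinc finger gene Glis3 rose by 1.65 (q = 0.0326, limma) and 1.43 (q = 0.0310), from 2.5 to 11.1 TPM and 3.6 to 8.1 TPM in Cd38+/+ to 9.1 to 23.3 TPM and 9.8 to 23.7 TPM in Cd38-/- libraries. The orphan nuclear receptor gene Nr2f1 fell by 1.17 (q = 0.0109, limma), from 44.5 to 62.7 TPM in Cd38+/+ to 17.2 to 27.5 TPM in Cd38-/- libraries, and the glucocorticoid-responsive Klf15 by 0.49 (q = 0.0318). Of these 8 genes, followed through the alternatives after their calls were seen, Nr2f1 was called without each library in turn, while Acvr2b kept its call in 1 of the 9 such fits, that without Cd38+/+ replicate 1. Psenen lost it without Cd38+/+ replicate 2 (-0.34, q = 0.0720, limma) and without Cd38-/- replicate 1, 2, 3, 5 or 6 (q from 0.0502 to 0.0990). Gli3, Glis3 and Klf15 lost it without Cd38-/- replicate 1, 2, 5 or 6 (q from 0.0610 to 0.0854, limma), and Il6st and Lif without Cd38-/- replicate 2 or 5 (q from 0.0518 to 0.0633). All 8 lost their calls when libraries were weighted by quality or the replicate block was used, with or without trend removal, and Acvr2b was at -0.58 with block and trend removal. These fits called almost no gene: 1 of 11722 with quality weights, 2 with the block and 1 with block and trend removal. With quality weights Cd38 itself was not called (q = 0.109, limma), its 1 loss over the 22 alternatives. Benjamini-Hochberg adjustment also ended the calls of Psenen, Acvr2b, Gli3, Glis3 and Klf15, the fit without trend those of Psenen, Acvr2b and Klf15, and removal of length and GC trends those of Psenen and Acvr2b.

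The dimerization partners and targets of the factors gave no calls by limma in this comparison. Of the bHLH partners and TLE corepressors, 10 of 11 were tested, with a median of 0.04 and an unadjusted p under 0.05 in 1. The 2 most abundant, Olig1 and Tcf4, differed by -0.20 (95% interval -0.68 to 0.28) and 0.01 (-0.36 to 0.38). The 3 genes activated jointly by SOX9 and NFIA were all above 0, with a median of 0.18 and an unadjusted p under 0.05 in none; Mmd2 was 919, 787 and 703 TPM in Cd38+/+ and 718 to 941 TPM in Cd38-/- libraries, and Zcchc24 differed by 0.42 (-0.01 to 0.85). Of the 16 regional factors, 10 were tested, with a median of 0.11 and none at an unadjusted p under 0.05. In Cd38+/- against Cd38+/+ and in Cd38-/- against Cd38+/- libraries no gene of these 8 lists was called by limma. An unadjusted p under 0.05 was reached, against 13.5% and 11.2% of all genes, by 7 of 24 and 1 of 22 Notch genes, 3 of 16 and 0 of 15 BMP genes, 3 and 1 of 10 JAK-STAT genes, and 5 and 2 of 14 further factors. For the paralogs it was 2 of 14 and 0 of 13, for the bHLH partners 0 and 0 of 10, for the SOX9 and NFIA targets 1 and 1 of 3, and for the regional factors 0 of 12 and 2 of 11.

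**Figure D5:**
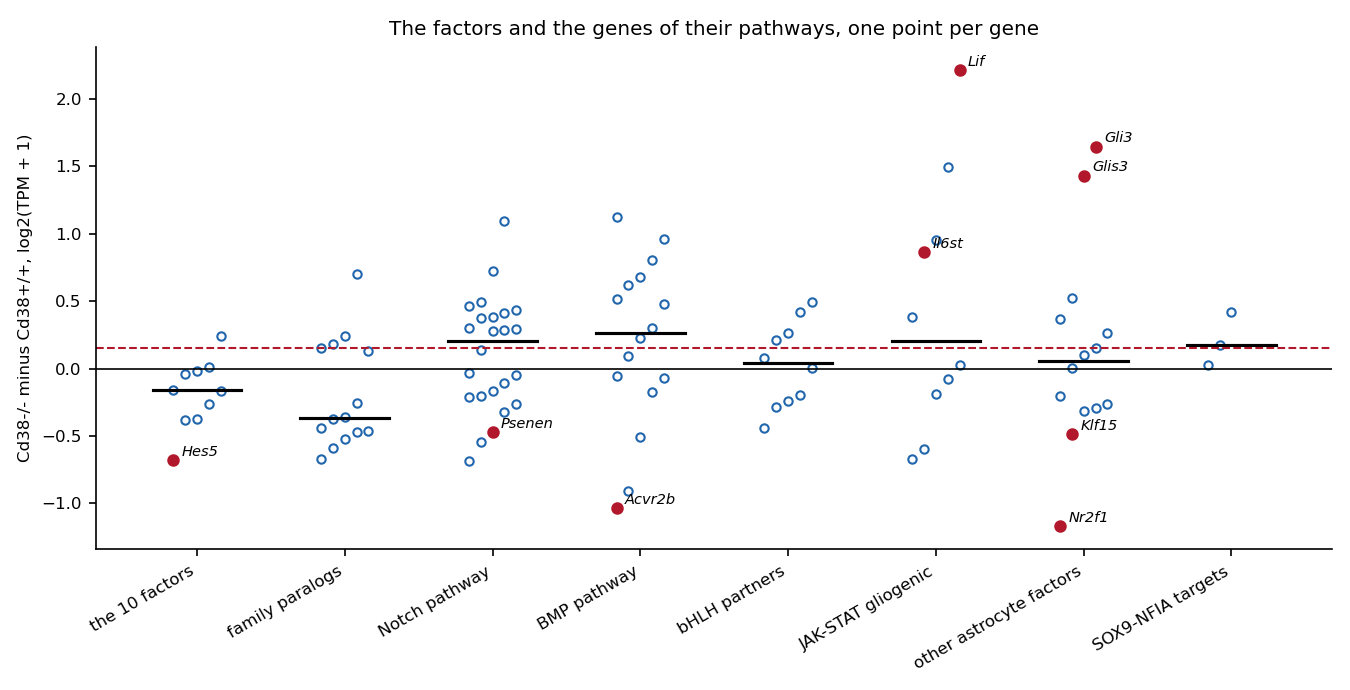
Difference in log2(TPM + 1) between Cd38-/- and Cd38+/+ for the 10 factors and the genes of 7 lists, 1 point per tested gene. Filled red points, named, passed the call rule, short lines are list medians and the dashed line is the median over all genes (0.15). The 10 factors and their paralogs have medians of -0.16 and -0.36.

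Markers of other cells were read in the same libraries. The 10 neuronal markers summed to 38.3 to 138 TPM. The microglial markers Cx3cr1 and Tmem119 were at 0 in all 3 Cd38+/+ libraries, while 6 of the 8 microglial markers were above 0 in at least 1 of them. The 8 oligodendrocyte markers summed to 1300 to 17814 TPM, nearly all Mbp, Mobp and Cnp. Mog was at 0 in all 3 Cd38+/+ libraries and at 1.4 to 22.7 TPM in the rest. The other 7 were above 0 in at least 1 Cd38+/+ library, among them Mag at 7.1, 31.4 and 5.2 TPM there and 3.2 to 50.4 TPM in the rest. The 5 oligodendrocyte precursor markers summed to 38.3 to 141 TPM and the 7 mural and fibroblast markers to 191 to 363 TPM over the 12 libraries. The 6 ependymal and choroid plexus markers, cells that also express Sox9, Sox2 and Id genes, summed to 1619 to 2865 TPM in Cd38+/+, 1715 to 8676 TPM in Cd38+/- and 2046 to 4493 TPM in Cd38-/- libraries. Among them Ttr, the choroid plexus carrier of thyroid hormone, had 223, 0 and 0 TPM in the Cd38+/+ libraries but 6537 TPM in Cd38+/- replicate 1, and 2 of 6, Ttr and Folr1, were called higher in Cd38-/- against Cd38+/+ libraries. The 10 genes of the response to tissue dissociation summed to 383 to 758 TPM in Cd38+/+, 247 to 472 TPM in Cd38+/- and 327 to 716 TPM in Cd38-/- libraries, with 1 of 9 tested, the immediate early gene Junb, called lower (-1.03). The part of these cells and of dissociation in the values of the 10 factors was not tested.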

How the data were processed

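RNA of bead-isolated midbrain astrocytes was converted to cDNA with SMART-Seq v4 and sequenced in pairs on a NovaSeq instrument. Per the submitters' processing notes, the authors trimmed reads with Trim Galore 0.6.4, mapped them to mm10 with STAR 2.7.1a and estimated expression with RSEM 1.2.28, and the notes also list DESeq2 1.36.0; the annotation is not given in the sources used here. The deposited values are TPM per gene and library, without pooling. TPM keeps no read count, so depth is unknown and no counting interval can be given.

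Genotypes came from the sample labels. They do not say that equal replicate numbers share a litter or day, nor that libraries are separate animals, so p-values measure the spread between these libraries, which may be technical. Genes whose mean exceeded 5 TPM in either genotype were fitted as log2(TPM + 1) with limma 3.58.1 (eBayes with trend) in R 4.3.3, on the libraries of the 2 genotypes compared. Storey q-values were taken over all genes tested, and fold changes are on the log2(TPM + 1) scale. The paper states no model behind its q-values. DESeq2, listed in the processing notes, works on read counts, which TPM does not keep, so limma was chosen here. The fit was also run on simulated libraries with values drawn independently for each gene. That run checks the code and not the error rate on these libraries. Single values were compared with two-sided exact permutation tests, which cannot go below p = 0.1 with 3 against 3 and 0.0119 with 6 against 3. Positions, transcript lengths, GC content and overlaps came from GENCODE vM21 (GRCm38), matched by gene ID for 20503 genes, and promoter windows from RefSeq (GRCm38.p6).

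The 10 factors and all gene lists were chosen with earlier results of these data known. Named genes are the 10 factors, Cd38, 4 astrocyte markers, the called genes of each pathway list (up to 4 per list, or the 2 most abundant where none was called) and the 3 genes most similar in profile to each factor; other genes are marker genes given beside a result. Alternatives were other pseudocounts (0.1 and 5), dropping the filter or requiring 1 TPM throughout, Benjamini-Hochberg adjustment, eBayes without trend, library quality weights (statmod 1.5.0), median-ratio scaling, quantile normalization, removal of length and GC trends, all 12 libraries in one fit, a replicate block, and leaving out each library. For Cd38 and the called pathway genes the same alternatives were added after seeing the data. Figures were drawn with matplotlib 3.10.9. The summed level of the microglial markers is not reported here.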

Additional observations from a re-analysis of the deposited data

How the results depend on the processing

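The fall of Hes5 in Cd38-/- against Cd38+/+ libraries kept its direction under all 22 alternatives (-0.87 to -0.28) and lost its call under 14 of them. With it, the number of the 10 factors called went from 1 to 0 under Benjamini-Hochberg adjustment, without the eBayes trend, with library quality weights, with the length and GC trends removed, and with the replicate block with or without that removal. Over all genes, Benjamini-Hochberg adjustment left 326 of 11722 called, the fit without the eBayes trend 845 of 11722 and trend removal 877 of 11709. Quality weights left 1 of 11722, without Cd38 itself, and the block 2 of 11722, or 1 of 11709 with trend removal too. The number of factors called was 2 without a filter (2283 of 18906 genes called), under quantile normalization (1115 of 11722) and with all 12 libraries in one fit (1822 of 11722). In each of these fits Id3 was added. On leaving out 1 library the number was 0 to 2. In Cd38-/- against Cd38+/- libraries 1 factor, Id2, was called with quality weights, beside 3120 of 11563 genes. The weights of that fit did not converge and gave Cd38+/- replicate 3 a weight of 42.6. The cause of these changes was not tested.

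Differences near 0 changed sign. Against Cd38+/+, in Cd38-/- libraries, Id2 was 0.035 with quality weights, Sox2 was -0.11 under median-ratio scaling and -0.074 with trends removed, and Hes1 was 0.071 with trends removed. In Cd38+/- libraries, Nfix was -0.22 with quality weights and -0.074 under median-ratio scaling, Sox2 was -0.00041 under median-ratio scaling, and with trends removed Nfib was -0.086 and Hes1 0.15. In Cd38-/- against Cd38+/- libraries, Id4 was 0.051 with trends removed. On leaving out 1 library, Sox2 ranged from -0.081 to 0.17, Nfib from -0.24 to 0.12, Hes1 from -0.33 to 0.0016, Id2 from -0.095 to 0.039 and Id4 from -0.37 to 0.066 in Cd38-/- against Cd38+/+. In Cd38+/- against Cd38+/+, Nfib ranged from -0.064 to 0.30, Nfix from -0.20 to 0.26, Hes1 from -0.27 to 0.065 and Id4 from -0.35 to 0.093. In Cd38-/- against Cd38+/-, Sox9 ranged from -0.32 to 0.014, Nfia from -0.34 to 0.018 and Id4 from -0.080 to 0.035.

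Whether equal replicate numbers pair the libraries could not be decided with so few libraries. Deviations of same-numbered libraries correlated at -0.0924 to 0.0448 with Cd38+/+ libraries, against -0.14 to 0.17 for different numbers. Between Cd38+/- and Cd38-/- same-numbered libraries correlated at 0.454, -0.307 and -0.0068, against -0.51 to 0.34 for different numbers. With the replicate block, Hes5 was -0.71 (q = 0.325, limma), or -0.32 with trends removed too, in Cd38-/- against Cd38+/+. There, Nfib was 0.043 and Nfix 0.072 with the block, and with block and trend removal Sox2 was -0.058, Nfix 0.22 and Hes1 0.053. In Cd38+/- against Cd38+/+, with block and trend removal, Nfib was -0.086 and Hes1 0.15. In Cd38-/- against Cd38+/-, with the block, Sox9 was 0.048, Nfix 0.015 and Id4 0.11, and with trend removal too 0.089, 0.050 and 0.15.

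The 970 genes called in Cd38-/- against Cd38+/+ became 326 with Benjamini-Hochberg adjustment, 2283 without a filter, 1 with quality weights, 1822 with all 12 libraries, 2 with the block (1 with trend removal too) and 74 to 3119 on leaving out 1 library. The 0 genes called in Cd38+/- against Cd38+/+ became 663 without a filter, 9 without trend, 30 with quality weights, 1464 with all 12 libraries, 4 with the block (3 with trend removal too) and 0 to 10 on leaving out 1 library. The 4 called in Cd38-/- against Cd38+/- became 6 with a pseudocount of 5, 3120 with quality weights, 1 under median-ratio scaling, 1 with all 12 libraries, 2 with the block, with or without trend removal, and 0 to 93 on leaving out 1 library. TPM keeps no counts, so what depth limits cannot be computed.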
